A study of Mus musculus with 10 samples.

Results

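The RUNX transcription factor genes Runx1, Runx2 and Runx3, with Cbfb, the gene of their shared partner, were followed in chromatin accessibility profiles of small intestinal innate lymphoid cells (ILCs). A peak, that is, a stretch of open chromatin in the authors' table, was assigned to a gene when the nearest protein-coding gene body within 50 kb was that gene. This gave 47 of 36251 peaks: 13 for Runx3, 19 for Runx1, 14 for Runx2 and 1 for Cbfb. Of the Runx2 peaks, 2 lie in the stretch where Runx2 overlaps the neighbouring gene Supt3 and belong to both genes. The farthest Runx3 peak counted lay 43609 bp away and averaged 6.99 ± 0.24 in RORgt-KO, 7.44 ± 0.31 in RORgt-Tbet-KO, 7.15 ± 0.52 in RORgt-RORa-KO and 6.42 ± 0.25 in Control (log2 scaled reads, SD). The nearest peak beyond the 50 kb limit, at 50357 bp, averaged 7.80 ± 0.04, 8.57 ± 0.21, 7.60 ± 0.56 and 7.53 ± 0.12 in the same order of groups and was not counted. For Runx1 the limit fell between peaks at 41129 bp (7.20, 7.17, 7.44 and 6.87) and 54454 bp (6.42, 6.85, 6.00 and 6.87), and for Runx2 between 40056 bp (3.26, 1.62, 3.70 and 3.73) and 62884 bp (4.71, 3.75, 4.24 and 5.73).

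The assay was ATAC-seq, which marks accessible DNA by letting Tn5 transposase cut it and attach adapters. The 10 libraries came from ILCs sorted out of the lamina propria of C57BL/6 mice, each a biological replicate of 1 intestine or a pool of 2 or 3. The groups were RORgt-KO (Id2creERT2+ x Rorcf/f x tdRFP+, n = 2), RORgt-Tbet-KO (which also carried Tbx21f/f, n = 2), RORgt-RORa-KO (which also carried Roraf/f, n = 3) and Control (Id2creERT2+ x tdRFP+, n = 3). All groups, Control included, thus carried the tamoxifen-inducible Cre driven from Id2 and a red fluorescent reporter, and all mice were fed tamoxifen for several weeks. The deletion acts in Id2-expressing cells of grown animals, and the sorted population was pooled, so a larger share of cells with an open site and a more open site per cell cannot be told apart.

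RUNX proteins bind DNA through the conserved Runt domain, and CBFb, which does not touch DNA itself, raises their affinity for it. RUNX1 is required for the emergence of blood stem cells and RUNX2 for bone formation. RUNX3 shapes cytotoxic lymphocytes, and in mice it is needed for group 1 and group 3 ILCs. RUNX genes are classically transcribed from a distal and a proximal promoter, which give proteins with different first residues.

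The promoter sequences are shown first because the distal starts of the 3 RUNX genes lie in or beside measured peaks and hold the same run of bases. RefSeq sequences of GRCm38.p6, 250 bases before to 50 after each start, were found for all 4 genes. The longest run common to the windows of Runx3 (distal start), Runx1 (distal start) and Runx2 (its only listed start) was 18 bases long. It contains the RUNX motif TGTGGT 2 times, read on the opposite strand as ACCACA. Counted from the start, the run begins at base -136 in Runx3, 27 in Runx1 and 22 in Runx2. The stretches of 30 bases below carry the shared run in capitals; they lie at chr4:135120503-135120532 (+ strand), chr16:92826025-92826054 (- strand) and chr17:44814583-44814612 (- strand).
Runx3 distal: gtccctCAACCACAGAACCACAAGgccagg
Runx1 distal: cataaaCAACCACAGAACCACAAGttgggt
Runx2: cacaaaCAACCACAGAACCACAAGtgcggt
Of 32817 RefSeq promoter windows, 4 held the 18-base run on either strand: these 3 and that of a predicted gene that reads across the Runx3 start on the opposite strand. The motif TGTGGT alone was in 16.8% of the windows and TGCGGT in 6.45%.

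The 250 bases before the distal Runx3 start (chr4, + strand, from 135120395 up to the start at 135120645) are printed because the peak over them changed; TGTGGT matches, on either strand, are in capitals.
Runx3 distal, upstream: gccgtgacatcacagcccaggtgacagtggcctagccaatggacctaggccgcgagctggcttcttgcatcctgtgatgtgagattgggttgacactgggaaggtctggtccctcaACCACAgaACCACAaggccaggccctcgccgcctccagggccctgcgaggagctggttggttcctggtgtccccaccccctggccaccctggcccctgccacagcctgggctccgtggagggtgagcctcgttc
The distal window of Runx3 had 2 matches of TGTGGT and 0 of TGCGGT, that of Runx1 had 2 and 0, and that of Runx2 had 3 and 1. The proximal windows of Runx1 and Runx3 and the Cbfb window had 0 of either. CG dinucleotides numbered 8 in the distal Runx3 window, 2 in the distal Runx1 window and 2 in the Runx2 window. They numbered 45 in the proximal Runx3 window, 35 in the proximal Runx1 window and 30 in the Cbfb window. AGGTCA, the core bound by ROR receptors, occurred 1 time, in the Runx2 window, and in 16.3% of all windows; AGGTGT, a core of the T-box motif, occurred in 0 of the member windows and 13.7% of all. The motifs were searched as exact letters on both strands, and the RUNX matches do not overlap the others. Peaks covered all 300 bases of the distal Runx3, proximal Runx1 and Cbfb windows, 280 of the distal Runx1 window and 164 of the Runx2 window. The proximal Runx3 window, 31.9 kb into the gene, had no peak, the nearest lying 6104 bp away.

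Reads in peaks ranged from 2271585 to 5047436 per library, deepest in both RORgt-Tbet-KO libraries and RORgt-RORa-KO replicate 3, and libraries of 1 group correlated at r = 0.908 to 0.967 over all peaks. All 8 ILC markers examined had peaks. So did 4 of 6 T cell markers (Cd3e, Cd3d, Cd5 and Cd28, but not Cd3g or Cd8b1), 3 of 6 B cell markers (Pax5, Ebf1 and Blk) and 3 of 5 myeloid markers (Itgam, Cd14 and Adgre1, but not Csf1r or Lyz2). At a limma adjusted p under 0.05, none of the 14 Rora peaks was lower in RORgt-RORa-KO than in Control. Nor did any of the 3 Tbx21 peaks pass as lower in RORgt-Tbet-KO. The lowest Rora log2 fold change in RORgt-RORa-KO was -1.01 and did not pass (limma adjusted p = 0.109). The deleted exons are not known here, so these peaks do not check the deletions. A peak counts as changed at a limma adjusted p under 0.05, adjusted over all 36251 peaks, and SE is the moderated standard error. The 3 comparisons with Control share the same 3 Control libraries, so their values are set side by side and not correlated.

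In RORgt-KO, 6 of 47 peaks changed against Control, where 12.3% of all peaks did; 6 rose and 0 fell (5.19% and 7.12% of all peaks). None was lower at an unadjusted limma p under 0.05 or with voom either. In RORgt-Tbet-KO, 18 changed, where 22.6% of all peaks did; 16 rose and 2 fell (11.3% and 11.3% of all peaks). In RORgt-RORa-KO, 17 changed, where 31.2% of all peaks did; 15 rose and 2 fell (15.1% and 16.1% of all peaks). The median log2 fold change over the 47 peaks was 0.39, 0.53 and 0.38 in these comparisons, against 0.02, 0.01 and 0.02 over all peaks. In the moderated F test over the 4 groups, 21 of 47 differed, where 30.7% of all peaks did. All 7 knockout libraries lay above all 3 Control libraries at 7 of the 47 peaks, where 8.86% of all peaks did, and below them at 1, where 12.2% did. The RORgt-KO count rests on few libraries. It was 1 without RORgt-KO replicate 1, 3 without RORgt-KO replicate 2, and 2 without Control replicate 1 or without Control replicate 2.

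**Figure D1:**
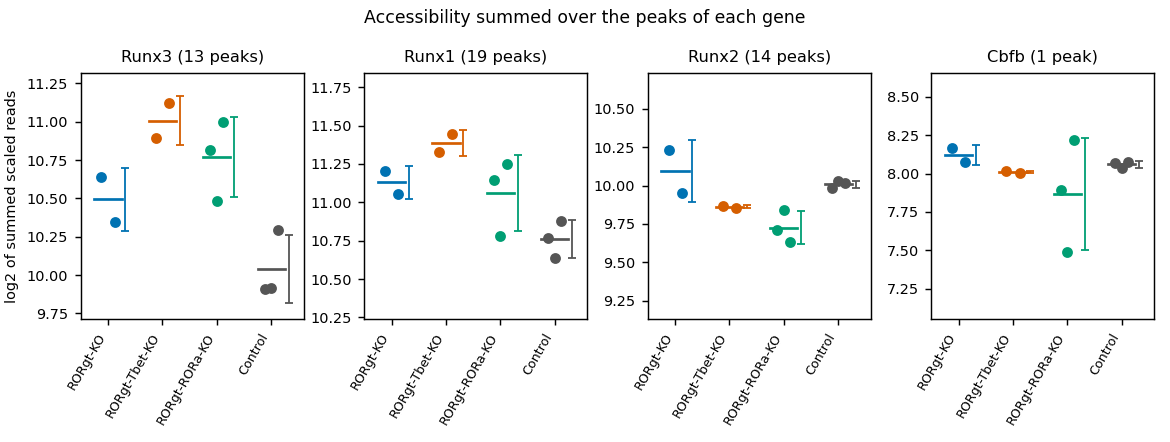
Accessibility summed over the peaks of each gene (log2 of the summed scaled reads, y axis) in the 3 knockout groups and Control (x axis); points are libraries, lines group means and bars SD, and the y axes span equal ranges. The 7 knockout libraries lie above the 3 Control libraries for Runx3, at 10.35 or more against 10.29 or less, while for Cbfb the Control libraries lie within the range of the RORgt-RORa-KO libraries.

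Summed over its 13 peaks, Runx3 gave 10.64 and 10.35 for RORgt-KO, 10.89 and 11.12 for RORgt-Tbet-KO and 10.82, 10.49 and 11.001 for RORgt-RORa-KO, against 9.91, 9.91 and 10.29 in Control (log2 of summed scaled reads). All knockout libraries were above all controls, though RORgt-KO replicate 2 and Control replicate 3 lay close together. Runx1, over 19 peaks, gave 11.21 and 11.05, then 11.33 and 11.45, then 11.15, 10.78 and 11.25 in the knockouts in the same order, against 10.77, 10.64 and 10.88 in Control. RORgt-RORa-KO replicate 2 was the only knockout library within the Control range for Runx1. Runx2, over 14 peaks, averaged 10.09 ± 0.20 in RORgt-KO, 9.86 ± 0.01 in RORgt-Tbet-KO, 9.73 ± 0.11 in RORgt-RORa-KO and 10.01 ± 0.02 in Control, a far smaller spread than its single peaks show. Cbfb, at its 1 peak, averaged 8.12 ± 0.06, 8.01 ± 0.01, 7.87 ± 0.36 and 8.06 ± 0.02 in the same order. These sums were not tested, and sums over different numbers of peaks do not rank the genes.

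**Figure D2:**
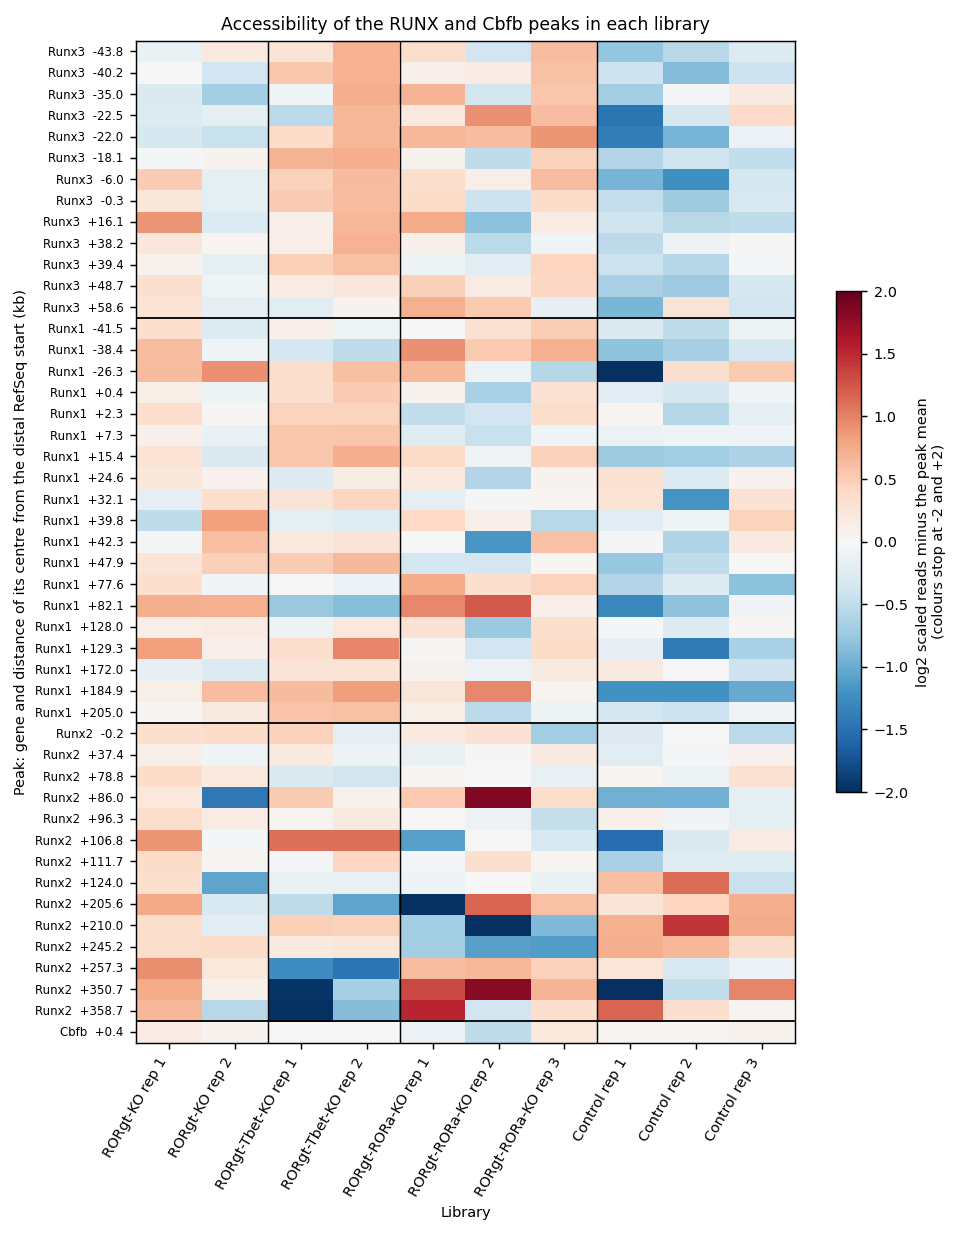
Each row is a peak, named by its gene and the distance of its centre from the distal RefSeq start (kb, y axis), and each column a library (x axis); colour is the log2 scaled reads minus the mean of that peak over 10 libraries. The 3 Control columns are pale or blue over most Runx3 rows. The Runx2 row at 245.2 kb is blue in RORgt-RORa-KO, and the row at 257.3 kb is blue in RORgt-Tbet-KO.

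Runx3, the RUNX factor of cytotoxic lymphocytes and ILCs, rose at peaks before, at and inside the gene (chromosome 4, 135120645 to 135177990). Of its 13 peaks, 8 lie between genes, 1 at the distal start and 4 inside the gene. In RORgt-KO 2 rose, in RORgt-Tbet-KO 8 rose and in RORgt-RORa-KO 7 rose, and 0 fell in any of these comparisons, also at an unadjusted limma p under 0.05 or with voom. These are 15.4%, 61.5% and 53.8% of its peaks, where 12.3%, 22.6% and 31.2% of all peaks changed. The median log2 fold change was 0.43, 0.88 and 0.71. The log2 fold change was positive at all 13 in both double knockouts and at 12 in RORgt-KO.

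The peak over the distal Runx3 start, whose upstream bases are printed above (135119999 to 135120728), had 8.09 and 7.68 for RORgt-KO, 8.38 and 8.50 for RORgt-Tbet-KO and 8.23, 7.46 and 8.24 for RORgt-RORa-KO, against 7.40, 7.17 and 7.57 in Control (log2 scaled reads; 100 to 431 reads per library). RORgt-RORa-KO replicate 2 alone among the knockouts fell inside the Control range. Against Control it rose by 1.06 in RORgt-Tbet-KO (SE 0.22, 2.09-fold, adjusted p = 0.000777) and in RORgt-RORa-KO by 0.60 (SE 0.20, adjusted p = 0.0191), and was 0.51 higher in RORgt-KO without passing (SE 0.22, adjusted p = 0.135). The RORgt-RORa-KO call was lost without replicate 1 or replicate 3 of that group or without Control replicate 2 (adjusted p = 0.122, 0.0968 and 0.0987).

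The largest RORgt-RORa-KO increase at Runx3 was 22.0 kb before the start (135098344 to 135098991). That peak had 7.19, 7.14 and 7.40 for RORgt-RORa-KO, 6.88 and 7.18 for RORgt-Tbet-KO and 6.19 and 6.08 for RORgt-KO, against 5.13, 5.58 and 6.40 in Control. The double knockouts stood above every Control library, while RORgt-KO lay within the Control range. It rose by 1.54 in RORgt-RORa-KO (SE 0.25, 2.91-fold, adjusted p = 2.21e-05) and by 1.32 in RORgt-Tbet-KO (SE 0.28, adjusted p = 0.000982). It was also higher in RORgt-RORa-KO than in RORgt-KO, by 1.11 (SE 0.28, adjusted p = 0.0363), and this was the only Runx3 peak that differed between knockouts. That last call was lost when any of 6 libraries was left out. Adjusted p was 0.164 and 0.457 without RORgt-KO replicate 1 or 2, 0.0514 and 0.0552 without RORgt-Tbet-KO replicate 1 or 2, and 0.0931 and 0.114 without RORgt-RORa-KO replicate 1 or 3.

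A peak 40.2 kb before the start (135079810 to 135081029) separated all knockouts from the controls, with 7.94 and 7.57 for RORgt-KO, 8.48 and 8.64 for RORgt-Tbet-KO and 8.05, 8.10 and 8.54 for RORgt-RORa-KO, against 7.53, 7.09 and 7.52 in Control. It rose by 1.18 in RORgt-Tbet-KO (SE 0.20, adjusted p = 0.000106) and by 0.85 in RORgt-RORa-KO (SE 0.18, adjusted p = 0.000565), and its RORgt-KO difference of 0.38 did not pass (adjusted p = 0.256). The peak 5.95 kb before the start (135114364 to 135115021) rose in all 3 knockouts. It had 6.62 and 5.94 for RORgt-KO, 6.58 and 6.75 for RORgt-Tbet-KO and 6.46, 6.24 and 6.74 for RORgt-RORa-KO, against 5.18, 4.90 and 5.76 in Control, with no overlap. Its log2 fold changes were 1.00, 1.39 and 1.20 (SE 0.29, 0.29 and 0.26; adjusted p = 0.0212, 0.000963 and 0.000708).

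Inside the gene, the peak 48.7 kb from the start (135169046 to 135169610) likewise rose in all 3 knockouts. It had 7.78 and 7.37 for RORgt-KO, 7.61 and 7.68 for RORgt-Tbet-KO and 7.93, 7.61 and 7.87 for RORgt-RORa-KO, against 6.80, 6.73 and 7.14 in Control, again with no overlap. The log2 fold changes were 0.68, 0.76 and 0.92 (SE 0.20, 0.20 and 0.18; adjusted p = 0.0255, 0.00808 and 0.000295). Over the 47 peaks, 4 rose in all 3 knockouts, where 3.54% of all peaks did. At both of these Runx3 peaks the RORgt-KO call was lost without RORgt-KO replicate 1 (adjusted p = 0.384 at 5.95 kb and 0.372 at 48.7 kb), without Control replicate 1 (0.0578 and 0.0798) or without Control replicate 2 (0.0933 and 0.0893). The RORgt-Tbet-KO call at 48.7 kb was lost without either RORgt-Tbet-KO library (adjusted p = 0.069 and 0.104) and with depth in the fit (0.091). The other Runx3 peaks differed from Control by -0.31 to 1.20, and 4 of the 13 passed in no comparison.

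**Figure D3:**
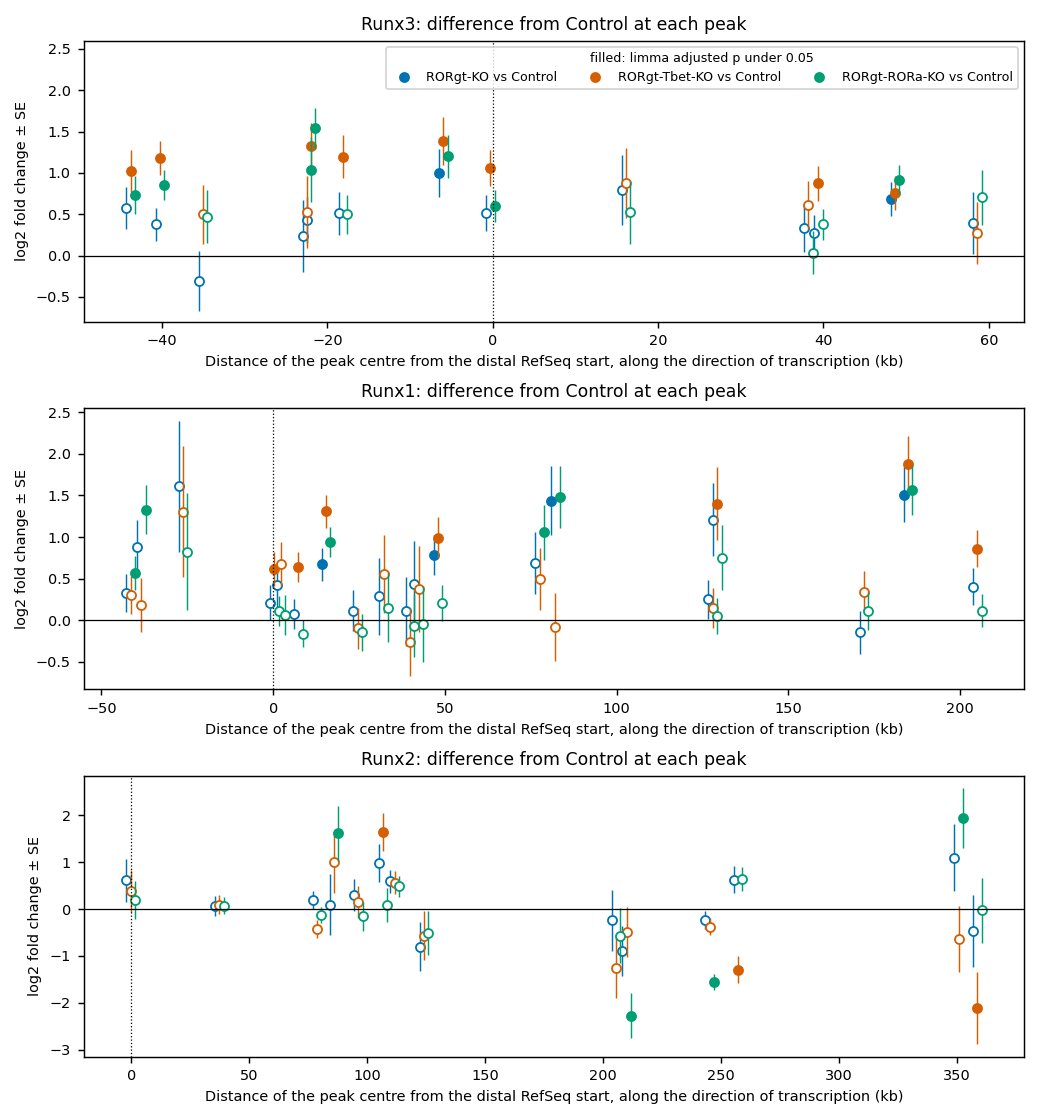
Difference of each knockout from Control (log2 fold change with moderated SE, y axis) at every peak of Runx3, Runx1 and Runx2 against the distance of the peak centre from the distal RefSeq start (kb, x axis); filled points passed the limma test. Runx3 points are nearly all above 0, while Runx2 points lie on both sides, down to -2.28.

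Depth moved with Runx3 and was examined beside it. Among RORgt-RORa-KO libraries the Runx3 sum was 11.001 at 4733829 reads, 10.82 at 2825693 and 10.49 at 2271585, and in RORgt-KO it was 10.64 at 3388680 and 10.35 at 2630478. In Control the order was the reverse, 9.91 at 3381784 and 3361390 reads and 10.29 at 2518233. With log2 reads in peaks as a term in the fit, the 47 peaks gave 8 changes in RORgt-Tbet-KO in place of 18, and 5 of the 8 Runx3 calls there were lost. These were the start peak (0.77, adjusted p = 0.0607), the peak at 48.7 kb (0.68, adjusted p = 0.091) and, named after their values were seen, those starting at 135076666, 135102101 and 135159603 (adjusted p = 0.162, 0.11 and 0.12). That fit still gave 6 changes in RORgt-KO and 17 in RORgt-RORa-KO. Since both RORgt-Tbet-KO libraries were deep, depth and the T-bet deletion are partly confounded. The RORgt-Tbet-KO count was also 9 without RORgt-Tbet-KO replicate 2.

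Markers of other cells also moved. T cell marker peaks (7 peaks of 4 of 6 genes) had a mean level of 5.46 to 5.61 in RORgt-KO, 5.72 to 6.02 in RORgt-Tbet-KO and 6.00 to 6.11 in RORgt-RORa-KO, against 5.53 to 5.71 in Control (log2 of mean scaled reads). Its genes did not move as 1: Cd3e rose in all 3 knockouts and Cd3d in RORgt-RORa-KO. Cd5 had a lower peak in all 3, and also a higher peak in RORgt-Tbet-KO. Cd28 had a lower peak in both double knockouts, and also a higher peak in RORgt-RORa-KO. B cell marker peaks (12 peaks of 3 of 6 genes) had 5.82 to 5.86, 5.91 to 6.14 and 5.59 to 5.81 in the knockouts in that order, against 6.46 to 6.58 in Control, with lower peaks at Pax5, Ebf1 and Blk in each knockout. Epithelial peaks (7 peaks of 3 of 5 genes) had 6.39 to 6.43, 6.61 to 6.75 and 6.48 to 6.54, against 6.10 to 6.22 in Control. Of these, Epcam and Cdh1 had only higher calls, but the Krt8 peak was lower in RORgt-KO (6.35) and RORgt-RORa-KO (5.20) than in Control (7.20). Stromal and endothelial peaks (11 peaks of 2 of 4 genes) had 5.60 to 5.68, 5.94 to 5.98 and 5.69 to 6.09, against 5.19 to 5.47 in Control. Of these, Pecam1 had a higher peak in all 3 knockouts, and also a lower peak in RORgt-RORa-KO. Pdgfra had no call, and its sum averaged 6.94, 6.70 and 7.06 in the knockouts in that order, against 6.84 in Control. Myeloid peaks (3 peaks of 3 of 5 genes) had 5.63 to 5.78, 5.23 to 5.47 and 5.50 to 6.13, against 5.36 to 5.79 in Control. Each knockout overlapped Control, but RORgt-Tbet-KO lay below both other knockouts. Of the myeloid genes only Itgam had a call, higher in RORgt-RORa-KO (5.73) than in Control (4.55) and RORgt-Tbet-KO (3.89). ILC marker peaks (52 peaks of 8 of 8 genes) had 6.996 to 7.06, 7.31 to 7.32 and 6.97 to 7.22, against 6.91 to 7.12 in Control. The part of these in the RUNX results was not tested.

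Runx1, the founding RUNX factor of blood cells (chromosome 16, 92601466 to 92826074, read on the minus strand), rose at single sites, some of which differed between knockouts. Its 19 peaks comprise 1 at the distal start, 15 inside the gene and 3 between genes. In RORgt-KO 4 rose, in RORgt-Tbet-KO 7 and in RORgt-RORa-KO 6; 0 fell, also at an unadjusted limma p under 0.05 or with voom. These are 21.1%, 36.8% and 31.6% of its peaks, where 12.3%, 22.6% and 31.2% of all peaks changed. Counting either direction, the RORgt-RORa-KO share was thus that of all peaks. By direction, 15.1% of all peaks rose and 16.1% fell in that comparison. The median log2 fold change was 0.42, 0.56 and 0.15. Between RORgt-RORa-KO and RORgt-Tbet-KO 5 peaks differed, 2 higher and 3 lower. These are 26.3% of its peaks, where 7.54% of all peaks differed (3.82% higher and 3.72% lower). Every one of these 5 calls was lost with depth in the fit.

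The peak at the distal Runx1 start (92825136 to 92826304), with the highest level of the 47 peaks (not per length), averaged 8.72 ± 0.15 in RORgt-KO, 9.13 ± 0.13 in RORgt-Tbet-KO, 8.62 ± 0.50 in RORgt-RORa-KO and 8.51 ± 0.13 in Control. By library it had 8.83 and 8.62, 9.04 and 9.22, and 8.78, 8.07 and 9.02 in the knockouts, against 8.51, 8.39 and 8.64 in Control. It rose in RORgt-Tbet-KO (0.62, SE 0.21, adjusted p = 0.0308). RORgt-Tbet-KO did not differ past the threshold from RORgt-KO (0.41, adjusted p = 0.477), nor RORgt-RORa-KO from RORgt-Tbet-KO (-0.51, adjusted p = 0.151). With depth in the fit the difference from Control was 0.23 (adjusted p = 0.573), and it also failed without RORgt-Tbet-KO replicate 1 or 2 (adjusted p = 0.0985 and 0.247) or Control replicate 1 or 2 (0.0679 and 0.106). The peak over the proximal start, 128.7 kb into the gene (92697263 to 92698971), had log2 fold changes of 0.25, 0.15 and 0.05 and passed in no comparison.

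Runx1 peaks 15.4 kb and 185 kb into the gene rose in all 3 knockouts, and no knockout library overlapped a Control library at either. The first (92810251 to 92811042) had 8.24 and 7.68 for RORgt-KO, 8.51 and 8.69 for RORgt-Tbet-KO and 8.35, 7.90 and 8.43 for RORgt-RORa-KO, against 7.26, 7.27 and 7.35 in Control. Its log2 fold changes were 0.67, 1.31 and 0.94 (SE 0.20, 0.20 and 0.18; adjusted p = 0.0253, 2.7e-05 and 0.000184). The second (92641012 to 92641433) had 5.61 and 6.11, 6.12 and 6.33, and 5.73, 6.46 and 5.54 in the knockouts in that order, against 4.28, 4.28 and 4.48 in Control. Here the folds were 2.85, 3.68 and 2.96 (adjusted p = 0.0025, 0.000151 and 0.00016). At 15.4 kb the RORgt-KO call was lost without RORgt-KO replicate 1 (adjusted p = 0.467) or Control replicate 1 or 2 (0.0692 and 0.0648), and at 185 kb without RORgt-KO replicate 2 (0.0896).

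At 82.1 kb into Runx1 (92743787 to 92744129) the knockouts parted. The peak had 5.71 and 5.70 in RORgt-KO and 5.94, 6.21 and 5.09 in RORgt-RORa-KO, but 4.23 and 4.14 in RORgt-Tbet-KO, against 3.69, 4.18 and 4.92 in Control. It rose by 1.44 in RORgt-KO (SE 0.41, adjusted p = 0.0195) and by 1.48 in RORgt-RORa-KO (SE 0.37, adjusted p = 0.00261), and was -0.08 from Control in RORgt-Tbet-KO (SE 0.41). It was 1.56 higher in RORgt-RORa-KO than in RORgt-Tbet-KO (SE 0.41, adjusted p = 0.0158), while the RORgt-Tbet-KO difference from RORgt-KO of -1.52 did not pass. The peak held 10 to 44 reads. The RORgt-KO call failed without RORgt-KO replicate 1 or 2 or Control replicate 1 (adjusted p = 0.149, 0.133 and 0.0834), and the last difference with depth in the fit (0.83, adjusted p = 0.55) or without any of 4 libraries of its groups (0.0726 to 0.152).

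The peak 38.4 kb before the distal Runx1 start (92864313 to 92864577) rose in RORgt-RORa-KO. It had 6.04 and 5.35 for RORgt-KO, 5.08 and 4.91 for RORgt-Tbet-KO and 6.34, 5.95 and 6.15 for RORgt-RORa-KO, against 4.62, 4.76 and 5.07 in Control. The rise in RORgt-RORa-KO was 1.33 (SE 0.29, adjusted p = 0.000856), while RORgt-Tbet-KO was 0.18 from Control (adjusted p = 0.741) and -0.70 from RORgt-KO (adjusted p = 0.43), neither of which passed. RORgt-RORa-KO was 1.15 above RORgt-Tbet-KO (SE 0.33, adjusted p = 0.0272). That last difference was lost without either RORgt-Tbet-KO library or RORgt-RORa-KO replicate 1 (adjusted p = 0.165, 0.269 and 0.111) and with depth in the fit (0.144).

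Chosen after their values were seen, 3 Runx1 peaks were lower in RORgt-RORa-KO than in RORgt-Tbet-KO. They lie 7.29, 47.9 and 205 kb into the gene and had log2 fold changes of -0.80, -0.79 and -0.74 in RORgt-RORa-KO against RORgt-Tbet-KO (adjusted p = 0.00375, 0.0409 and 0.0369). At the first, values were 7.91, 7.71 and 8.07 in RORgt-RORa-KO and 8.70 and 8.71 in RORgt-Tbet-KO. All 3 calls were lost with depth in the fit (adjusted p = 0.0982, 0.242 and 0.246) and without RORgt-Tbet-KO replicate 1 (0.0795, 0.215 and 0.256) or replicate 2 (0.0782, 0.35 and 0.283). The remaining Runx1 peaks included 8 that passed in no comparison.

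**Figure D4:**
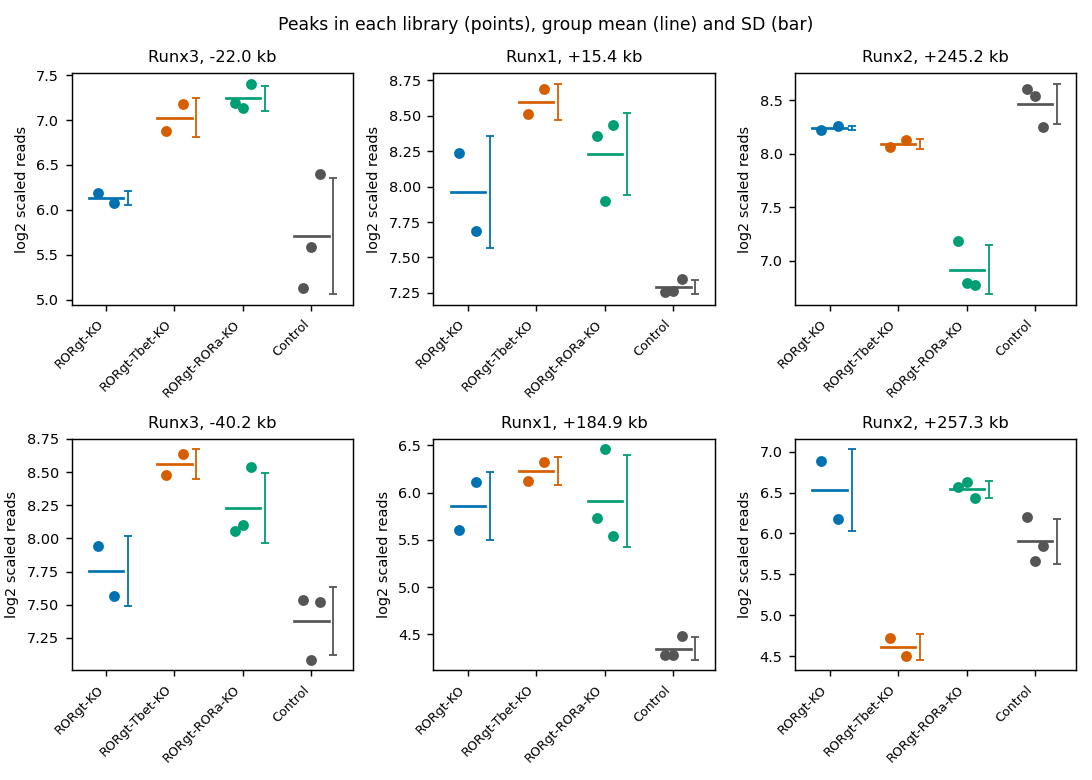
Log2 scaled reads (y axis) of 6 peaks in the 3 knockout groups and Control (x axis), titled by gene and distance from the distal start; points are libraries, lines means and bars SD, and y axes differ. The Runx2 peak at 245.2 kb is low in RORgt-RORa-KO alone, at 6.77 to 7.19, and the Runx2 peak at 257.3 kb in RORgt-Tbet-KO alone, at 4.50 and 4.72.

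Runx2, known for bone formation (chromosome 17, 44495987 to 44814797, minus strand), changed against Control at about the share of all peaks in the double knockouts, and in both directions. Of its 14 peaks, 0 changed in RORgt-KO by limma or voom, and 3 were higher and 0 lower at an unadjusted limma p under 0.05. In RORgt-Tbet-KO 1 rose and 2 fell, and in RORgt-RORa-KO 2 rose and 2 fell. These are 21.4% and 28.6% of its peaks, where 22.6% and 31.2% of all peaks changed. Between RORgt-RORa-KO and RORgt-Tbet-KO, 2 were higher and 3 lower. Taking all 47 peaks, 10 differed in that comparison, where 7.54% of all peaks did; 4 were higher and 6 lower (3.82% and 3.72% of all peaks). That count was 2 with depth in the fit, 2 and 3 without RORgt-Tbet-KO replicate 1 or 2, and 5 without RORgt-RORa-KO replicate 1 or 2.

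The smallest adjusted p of any RUNX peak was 245 kb into Runx2 (44568913 to 44569862). The peak had 7.19, 6.80 and 6.77 for RORgt-RORa-KO, 8.06 and 8.13 for RORgt-Tbet-KO and 8.23 and 8.26 for RORgt-KO, against 8.61, 8.54 and 8.25 in Control, at 63 to 334 reads per library. All 3 RORgt-RORa-KO libraries lay below all 7 others. It fell by 1.55 in RORgt-RORa-KO against Control (SE 0.17, 2.93-fold, adjusted p = 5.63e-08). RORgt-RORa-KO was also lower than RORgt-KO, by -1.32 (SE 0.19, adjusted p = 0.000117), and than RORgt-Tbet-KO, by -1.18 (SE 0.19, adjusted p = 0.00011). RORgt-KO and RORgt-Tbet-KO differed from Control by -0.22 and -0.37 (adjusted p = 0.524 and 0.164). No left-out library removed any of these 3 calls. With no mean-variance trend in the limma fit, the call against RORgt-KO was lost (adjusted p = 0.0584).

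A smaller Runx2 peak 210.0 kb into the gene (44604511 to 44604716) had 3.48, 1.82 and 3.30 for RORgt-RORa-KO, 4.67 and 4.65 for RORgt-Tbet-KO and 4.53 and 3.97 for RORgt-KO, against 4.90, 5.62 and 4.92 in Control. All knockout libraries were below the controls, those of RORgt-RORa-KO the most. It fell by 2.28 in RORgt-RORa-KO (SE 0.48, adjusted p = 0.000514). Against RORgt-Tbet-KO the log2 fold change was -1.79 (SE 0.54, adjusted p = 0.0354). With 2 to 38 reads, this second call was lost without either RORgt-Tbet-KO library or RORgt-RORa-KO replicate 2 (adjusted p = 0.262, 0.255 and 0.137) and with depth in the fit (0.566).

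The peak 257 kb into Runx2 (44556989 to 44557667) went the other way. It had 4.72 and 4.50 in RORgt-Tbet-KO, 6.88 and 6.17 in RORgt-KO and 6.57, 6.63 and 6.43 in RORgt-RORa-KO, against 6.21, 5.66 and 5.85 in Control. Both RORgt-Tbet-KO libraries lay below all 8 others. It fell by 1.29 in RORgt-Tbet-KO against Control (SE 0.29, 2.45-fold, adjusted p = 0.00153). Against RORgt-KO the log2 fold change was -1.92 (SE 0.31, 3.78-fold, adjusted p = 0.000641), the only RUNX peak of 47 to differ in that comparison, where 1.14% of all peaks did (0.965% of all peaks were lower). RORgt-RORa-KO was 1.93 above RORgt-Tbet-KO (SE 0.29, adjusted p = 3.5e-05). The RORgt-KO comparison was lost without RORgt-KO replicate 1 (adjusted p = 0.0792), and all 3 calls held with depth in the fit. Between RORgt-RORa-KO and RORgt-KO, 2 of the 47 peaks differed, 1 in Runx3 and 1 in Runx2, where 1.47% of all peaks did.

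Chosen after its values were seen, a peak 107 kb into Runx2 (44707461 to 44708149) was high in RORgt-Tbet-KO, at 6.57 and 6.58, with 6.35 and 5.46 in RORgt-KO, 4.39, 5.46 and 5.16 in RORgt-RORa-KO and 3.96, 5.18 and 5.63 in Control. Its RORgt-Tbet-KO increase was 1.65 (SE 0.41, adjusted p = 0.00391). The 3 other called Runx2 peaks, also named for this after their values were seen, held as few as 2 or 3 reads in a library and lay 86.0, 351 and 359 kb from the start. The first 2 rose in RORgt-RORa-KO by 1.61 and 1.94 (adjusted p = 0.0342 and 0.0205), and the last had a log2 fold change of -2.10 in RORgt-Tbet-KO (adjusted p = 0.0478). Each lost its call without Control replicate 1 (adjusted p = 0.0806, 0.187 and 0.152). Of 20 alternatives run, 5, 4 and 15 removed these calls in that order. The last was lost with voom (adjusted p = 0.069) and with quantile normalization (limma adjusted p = 0.0773), among others. At the Runx2 start itself (44814713 to 44815028), the peak was low in all groups, with 4.87 and 4.90 for RORgt-KO, 4.9999 and 4.33 for RORgt-Tbet-KO and 4.73, 4.82 and 3.84 for RORgt-RORa-KO, against 4.28, 4.54 and 4.00 in Control. No difference passed there, nor at the other shared peak over the Supt3 start (44776761 to 44777705), where the log2 fold changes were 0.07, 0.10 and 0.07.

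Cbfb, the common partner subunit (chromosome 8, 105170674 to 105217989), had 1 peak, over its start (105170253 to 105171823). It had 8.17 and 8.08 for RORgt-KO, 8.02 and 8.01 for RORgt-Tbet-KO and 7.89, 7.49 and 8.22 for RORgt-RORa-KO, against 8.07, 8.04 and 8.08 in Control. The groups overlapped except for RORgt-Tbet-KO, whose values were just below Control. The log2 fold changes of 0.06, -0.05 and -0.19 (SE 0.19, 0.19 and 0.17; adjusted p = 0.895, 0.888 and 0.434) did not pass.

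Genes with the most similar summed accessibility over the 10 libraries were sought among 3781 named genes with 3 or more peaks (3782 for Cbfb). For Runx3 they were Anp32a, B4galt5 and Ubxn11 (Pearson r = 0.988, 0.988 and 0.985), and for Runx1 Ube2v1, Cd300a and Etv3 (0.982, 0.972 and 0.971). For Runx2 they included Galnt12 and Selenot (0.862 and 0.832), and for Cbfb they were Glud1, Zfp703 and Elf2 (0.942, 0.942 and 0.912). The libraries share their groups and depths, and these values only describe likeness.

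Genes whose products bind or modify RUNX proteins changed at shares of their peaks near or below those of all peaks. Of 20 listed, 19 had peaks, 81 in all; 8 rose and 2 fell in RORgt-KO, 12 rose and 3 fell in RORgt-Tbet-KO, and 13 rose and 7 fell in RORgt-RORa-KO. These are 12.3%, 18.5% and 24.7% of the 81 peaks, where 12.3%, 22.6% and 31.2% of all peaks changed. By gene, 5, 8 and 7 of 19 had a changed peak. The median log2 fold change was 0.10, 0.16 and 0.16. A peak in Hipk2, a kinase gene (chromosome 6, 38809410 to 38810397), rose by 1.68 in RORgt-KO (SE 0.27) and by 1.59 with T-bet deleted too (SE 0.27), and another (38834777 to 38835132) rose by 2.64 in RORgt-RORa-KO (SE 0.33). Tle4, a Groucho-family corepressor gene, had a peak that rose by 1.46 in RORgt-KO (SE 0.32). Kmt2a, which encodes the histone methyltransferase MLL, had a peak that rose by 2.21 in RORgt-Tbet-KO (SE 0.37). A peak 41571 bp from Ets1, which encodes a DNA-binding partner of RUNX1, rose by 1.65 in RORgt-RORa-KO (SE 0.26). Hipk2 also had a lower peak in all 3 knockouts, and Ets1 in RORgt-KO and RORgt-RORa-KO. Tle4 had both higher and lower peaks in each double knockout.

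Of 22 genes described as RUNX targets in lymphocytes, 20 had peaks, 73 in all. In RORgt-KO 11 rose and 4 fell, in RORgt-Tbet-KO 20 rose and 2 fell, and in RORgt-RORa-KO 24 rose and 8 fell. These are 20.5%, 30.1% and 43.8% of the 73 peaks, where 12.3%, 22.6% and 31.2% of all peaks changed. The median log2 fold change was 0.19, 0.35 and 0.36, and 10, 11 and 15 of 20 genes had a changed peak. Gzmb, Prf1, Spi1 and Tbx21 had only higher peaks in all 3 comparisons. A peak within 1 kb of an end of Prf1, the perforin gene (chromosome 10, 61297051 to 61297868), had 7.86 ± 0.11 in RORgt-RORa-KO against 6.06 ± 0.32 in Control (SD, n = 3 each) and rose by 1.80 (SE 0.20). Another Prf1 peak (61305914 to 61306610) rose by 1.21 in RORgt-Tbet-KO (SE 0.19), and a further Prf1 peak (61308490 to 61308771) by 3.03 in RORgt-KO (SE 0.40). A peak 37546 bp from Bcl11b, a T lineage factor gene, rose by 1.54 in RORgt-KO (SE 0.28). A peak 46904 bp from Il2, a T cell growth factor gene, fell by 1.03 in RORgt-RORa-KO (SE 0.15), where Il2 also had a higher peak.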

How the data were processed

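ATAC-seq reads were trimmed with Trim Galore 0.62, aligned with Bowtie2 2.3.5.1, and processed with SAMtools and MACS2, per the submitters' processing notes, which name GRCm38. Whether samples were pooled for peak calling, and where the scaling comes from, is not given in the sources used. The authors deposited 1 table of log2 scaled reads for 36262 peaks in 10 libraries. Raised to the power of 2, all values of non-empty peaks were whole multiples of 1 step per library (tolerance 0.01), which gave back the reads; empty peaks hold 0.9 of a step. SD in the text is the spread between the libraries of a group. SE is moderated, so it also draws on the spread at other peaks. That prior carried a median of 22.5 degrees of freedom, against 6 residual ones.

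From these, 11 peaks on Y were left out, each peak was given its nearest protein-coding RefSeq gene, and limma 3.58.1 (R 4.3.3) was run on the deposited values (mean-variance trend, all 4 groups in 1 fit, 6 residual degrees of freedom, Benjamini-Hochberg over all peaks, threshold 0.05). Starts and promoter sequences are RefSeq's for GRCm38.p6; peak positions are as the file gives them. The median SE over all peaks was 0.27 to 0.33. The fit was tested on simulated data. Figures used matplotlib 3.10.9.

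Values by library are given for the 12 changed peaks with the smallest F-test p and the best peak at each gene end; per list and comparison with Control, the 2 genes with the smallest adjusted p are named. Some items named by these rules are not reported here. The members and lists were chosen with earlier results of these data known. Replicate numbers did not pair the libraries.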

Additional observations from a re-analysis of the deposited data

How the results depend on the processing

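Of 54 called differences of single peaks, 18 held under every alternative run and 22 when any single library was left out; none turned its direction, and 22 were lost with no mean-variance trend and 18 with depth as a covariate (added after the data were seen, as were voom and scaling by reads in peaks). The RORgt-KO count of 6 became 1 with no trend, 10 with library weights and 10 with the replicate block. RORgt-Tbet-KO against Control gave 8 with the depth covariate in place of 18. RORgt-RORa-KO against Control gave 9 in place of 17 when only peaks in the gene body or within 5 kb were kept. That limit leaves a smaller set than the 47 peaks, and the calls it removed lay farther from their gene. RORgt-Tbet-KO against RORgt-KO gave 2 with a pseudocount of 10, with the replicate block and with voom, 10 with library weights and 11 with only the groups compared, in place of 1. RORgt-RORa-KO against RORgt-KO gave 1 with quantile normalization, the replicate block, scaling by reads in peaks or the 5 kb limit, and 0 with no trend (5 at an unadjusted limma p), in place of 2. RORgt-RORa-KO against RORgt-Tbet-KO gave 4 with no trend and 2 with the depth covariate, in place of 10. Leaving out 1 library gave 15 to 23 for the F test, 1 to 8 for RORgt-KO, 9 to 19 for RORgt-Tbet-KO and 13 to 18 for RORgt-RORa-KO against Control, and 0 to 2, 1 to 2 and 2 to 14 for the comparisons between knockouts in that order. The 0, without RORgt-KO replicate 1, was 8 at an unadjusted limma p under 0.05. Where a group was left with 1 library, that library was assumed to vary like the others. The cause of these shifts was not tested. Same-numbered libraries of different groups had deviations correlated at -0.121 to 0.143, so the numbers were not taken as pairs. The edgeR and DESeq2 fits were not run, because the deposited values are log2. Peaks with few reads have SE of up to 0.77.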
